A study of Homo sapiens with 2 samples.

Results

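CCL3, CCL4 and CCL5 are the CC chemokine ligands of the 373 genes counted in SUM159, a line of human breast carcinoma without hormone receptors or HER2 amplification, by targeted single-cell RNA sequencing. The 3 genes were chosen on measured values of these same matrices, namely their level, the share of cells detecting them, the share of their unique molecular identifiers (UMIs) in the top 2% of cells and their joint detection, so all of these are given as descriptions with no test. All 3 genes were present in all 6 populations. The populations were doxorubicin-resistant, paclitaxel-resistant and treatment-naïve SUM159 cells, each grown as spheroids and as attached cells. The resistant cells had been derived from attached cells under rising drug doses, for doxorubicin in short exposures with drug-free recovery between them, and all cells are labelled wild type. The labels name the drug-exposed spheroid cells "treated", whereas the series design names them resistant. One cartridge carried all 3 spheroid populations and a second one all 3 attached populations, so culture and cartridge cannot be told apart. There was 1 sample of each population and therefore no replicate check and no p-value. Intervals in brackets are exact 95% intervals that cover counting error only.

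The files held 30122 cells, 11889 from spheroids and 18233 from attached cells, with 8452574 to 29451390 UMIs per population. The labels state that about 15000 cells were pooled per cartridge. Median depth was 1538 to 2340 UMIs per cell in the spheroid populations and 3653 to 3814 in the attached ones. At least 1000 UMIs were found in 56.0% to 67.7% of spheroid cells and in at least 99.98% of attached cells. No barcode was shared between populations of a cartridge, and 264 were shared between the cartridges.

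CC chemokines are small secreted proteins that act through G protein-coupled receptors on leukocytes and draw these cells along a gradient. CCL3 (MIP-1α) and CCL4 (MIP-1β) are neighbouring genes that activated myeloid and lymphoid cells often induce together through NF-κB, and CCR1 is a receptor of CCL3. CCL5 (RANTES) binds CCR1 and CCR3, among others, and in breast carcinoma it is known as a ligand made by tumour cells that recruits macrophages and T cells.

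In the RefSeq annotation of GRCh38.p14 the 3 genes lie on chromosome 17, CCL5 at chr17:35871491-35880360, CCL3 at chr17:36088256-36090143 and CCL4 at chr17:36103827-36105614. The end of CCL3 and the start of CCL4 are separated by 13683 bases, and the end of CCL5 and the start of CCL3 by 207895 bases. CCL3 has a near copy, CCL3L3, at chr17:36194869-36196758. The 120 bases before the transcription start of both copies are shown because they carry the core promoter of the gene whose level separated the populations below, with the copy beside it for comparison. The capitals mark TATAAA.
CCL3 (minus strand, chr17:36090144-36090263): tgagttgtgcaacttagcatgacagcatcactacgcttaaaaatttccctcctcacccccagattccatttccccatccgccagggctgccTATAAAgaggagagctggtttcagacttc
CCL3L3 (minus strand, chr17:36196759-36196878): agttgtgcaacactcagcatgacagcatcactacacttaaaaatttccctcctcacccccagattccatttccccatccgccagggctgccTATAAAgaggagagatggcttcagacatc
The copies were identical at 107 of the 120 positions (89.2%), compared position by position. In both of them TATAAA began 29 bases before the start, and TATAAA on either strand occurs in 5.63% of all windows of this length in the RefSeq table. These bases are not transcribed, and neither transcripts nor panel amplicons of the copies were compared, so whether CCL3 counts hold UMIs of CCL3L3 was not tested.

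CCL3 separated the resistance types. Its level was taken as CPM, the UMIs of a gene as a share of all UMIs of the population scaled to 1000000, and was 103.3 in doxorubicin-resistant, 4.26 in paclitaxel-resistant and 124 in treatment-naïve spheroids. Attached cells had 194 CPM in doxorubicin-resistant, 15.3 in paclitaxel-resistant and 306 in treatment-naïve cells. Both paclitaxel-resistant populations were therefore far below all others, and none of the 6 counting intervals overlapped. These levels rested on 1089, 36 and 1400 UMIs in the spheroid populations and on 5721, 358 and 6549 UMIs in the attached ones, each in the order given. At least 1 CCL3 UMI was found in 2.70%, 0.693% and 2.06% of the cells of doxorubicin-resistant, paclitaxel-resistant and treatment-naïve spheroids. The corresponding shares of attached cells were 3.94%, 2.05% and 7.05%. In every population CCL3 was detected in a small minority of cells. More than 5 UMIs were held by 101 of 7032 doxorubicin-resistant, 10 of 5896 paclitaxel-resistant and 120 of 5305 treatment-naïve attached cells. In spheroids this held for 28 of 3776 doxorubicin-resistant, 0 of 3751 paclitaxel-resistant and 25 of 4362 treatment-naïve cells. The exact 95% interval of the share at 0 cells reaches 0.0983%, and the highest paclitaxel-resistant spheroid cell held 5 UMIs, against 234 in doxorubicin-resistant and 418 in treatment-naïve spheroids.

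CCL4 exceeded 5 CPM in the doxorubicin-resistant populations and in none of the other 4. Its level was 52.6 CPM in doxorubicin-resistant, 0.710 CPM in paclitaxel-resistant and 3.10 CPM in treatment-naïve spheroids. Attached cells had 17.5 CPM in doxorubicin-resistant, 0.256 CPM in paclitaxel-resistant and 0.560 CPM in treatment-naïve cells. The intervals of the paclitaxel-resistant spheroid, treatment-naïve attached and paclitaxel-resistant attached populations overlapped, so the order of these 3 is not resolved at this depth. The UMIs were few: 554, 6 and 35 in doxorubicin-resistant, paclitaxel-resistant and treatment-naïve spheroids, and 516, 6 and 12 in the attached populations. They came from 29, 5 and 12 spheroid cells and from 40, 6 and 10 attached cells. In doxorubicin-resistant spheroids 3 cells with 182, 178 and 68 UMIs held 77.3% of all CCL4 UMIs. Among attached cells the 3 highest doxorubicin-resistant ones, with 132, 73 and 47 UMIs, held 48.8%.

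CCL5 was the abundant member and followed the treatment-naïve state. Its level was 1241 CPM in doxorubicin-resistant, 898 CPM in paclitaxel-resistant and 8079 CPM in treatment-naïve spheroids. Attached cells had 851 CPM in doxorubicin-resistant, 866 CPM in paclitaxel-resistant and 15651 CPM in treatment-naïve cells. By UMIs CCL5 ranked 13th among the genes of treatment-naïve attached cells and 23rd in treatment-naïve spheroids, against ranks 77 to 100 in the 4 resistant populations. The interval of paclitaxel-resistant attached cells overlapped those of doxorubicin-resistant attached cells and of paclitaxel-resistant spheroids. At least 1 CCL5 UMI was found in 27.5%, 22.8% and 45.6% of doxorubicin-resistant, paclitaxel-resistant and treatment-naïve spheroid cells, and in 59.5%, 57.9% and 82.0% of attached cells. Cells with more than 5 UMIs made up 3.58%, 2.13% and 17.8% of the spheroid populations, and 2.90%, 3.32% and 39.7% of the attached ones. The highest cells held 1252, 562 and 2022 UMIs in spheroids and 1957, 920 and 3461 UMIs in attached cells. A small share of resistant cells thus reached CCL5 counts of the same order as the highest treatment-naïve cells.

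**Figure D1:**
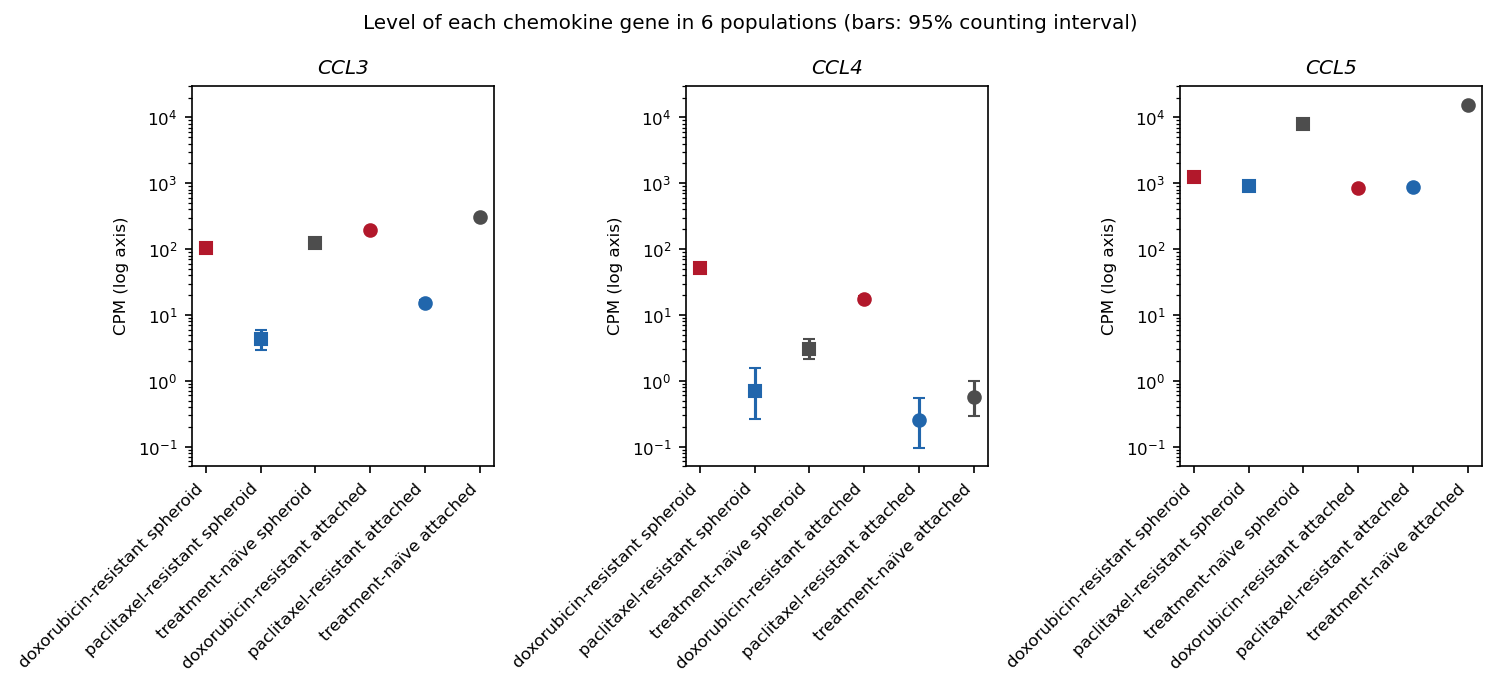
CPM (log axis) of CCL3, CCL4 and CCL5 in doxorubicin-resistant (red), paclitaxel-resistant (blue) and treatment-naïve (grey) populations, spheroids as squares and attached cells as circles, with bars for the 95% counting interval. CCL3 is lowest in both paclitaxel-resistant populations (4.26 and 15.3 CPM), CCL4 highest in both doxorubicin-resistant ones (52.6 and 17.5 CPM), and CCL5 highest in both treatment-naïve ones (8079 and 15651 CPM).

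The deeper attached libraries detect more genes per cell, so the shares were also taken after thinning each cell to 1000 UMIs, which left out 1218, 1587 and 1920 doxorubicin-resistant, paclitaxel-resistant and treatment-naïve spheroid cells and 0, 1 and 0 attached cells. The thinned share of cells with CCL5 was 14.1%, 12.2% and 40.0% in the spheroid populations and 23.3%, 23.7% and 58.8% in the attached ones, in the same order. For CCL3 it was 1.92%, 0.231% and 1.60% in spheroids and 2.08%, 0.729% and 4.09% in attached cells. Treatment-naïve cells had the highest thinned share for CCL5 in both cultures, paclitaxel-resistant cells the lowest for CCL3, and the 2 resistant attached populations, close for CCL5 in either measure, changed places.

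**Figure D2:**
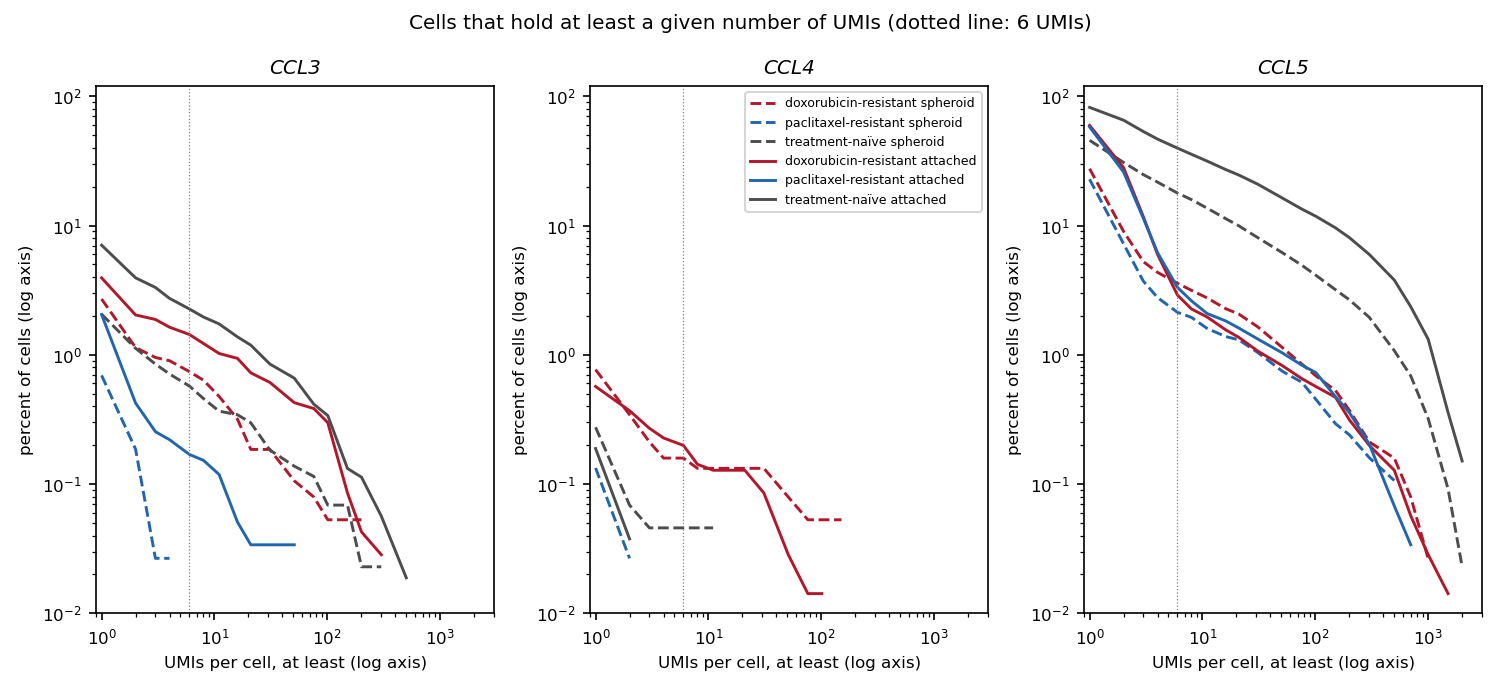
Percent of cells (log axis) holding at least the number of UMIs on the horizontal axis (log axis), for each gene and population; dashed lines are spheroids and solid lines attached cells. For CCL5, 59.5% of doxorubicin-resistant attached cells held at least 1 UMI but 2.90% held more than 5, whereas 39.7% of treatment-naïve attached cells did.

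The distribution of CCL5 in resistant cells had a broad base of 1 or 2 UMIs and a thin tail of high cells. Cells with 5 or fewer UMIs held 9.29%, 14.0% and 2.54% of all CCL5 UMIs in doxorubicin-resistant, paclitaxel-resistant and treatment-naïve spheroids, and 26.5%, 25.9% and 1.45% in the attached populations. The limit of more than 5 is a range and not a cell type. In doxorubicin-resistant attached cells 421 cells held 4 or more, 204 more than 5 and 159 held 8 or more CCL5 UMIs. The base itself was alike in the resistant populations of a culture. Over all cells with 2 or fewer CCL5 UMIs, those with 0 included, CCL5 stood at 99.0 CPM in doxorubicin-resistant and 105 CPM in paclitaxel-resistant spheroids. The value was 178 CPM in doxorubicin-resistant as well as in paclitaxel-resistant attached cells. These values equal 1.23% and 1.3% of the level of all treatment-naïve cells in spheroids, and 1.14% of it in both attached populations. For 6 other genes that earlier results of these data had as high in treatment-naïve cells the same quantity was 0.618% to 3.30% in doxorubicin-resistant and 0.644% to 2.42% in paclitaxel-resistant spheroids, and 0.378% to 1.62% and 0.644% to 2.20% in the attached populations. The 3 populations of a cartridge were pooled, and whether the base holds RNA from other cells of the cartridge was not tested.

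The first comparison asks how the resistant cells differ from treatment-naïve cells of the same culture. A gene counted as changed when its CPM differed 2-fold or more and one of the populations held 50 UMIs or more of it. In doxorubicin-resistant spheroids CCL4 was 16.98-fold higher (12.1 to 24.6) and CCL5 6.51-fold lower (6.39 to 6.63) than in treatment-naïve spheroids, whereas the CCL3 ratio was 0.834 (0.770 to 0.904), and 1.60 without the 1% of cells with the most UMIs. So 2 of 3 members passed, where 33.8% of all 260 measured genes did. In doxorubicin-resistant attached cells CCL4 was 31.3-fold higher (17.8 to 60.9) and CCL5 18.4-fold lower (18.2 to 18.6), and the CCL3 ratio was 0.635 (0.613 to 0.659). Again 2 of 3 members passed, against 47.0% of 268 genes. Because the members were chosen on these levels, the counts are printed beside these shares for scale only. In paclitaxel-resistant spheroids CCL3 was 29.1-fold lower (20.9 to 41.7) and CCL5 had a ratio of 0.111 (0.109 to 0.114). With 6 against 35 UMIs, CCL4 stayed under the minimum, so 2 of 2 members passed, against 30.2% of 252 genes. In paclitaxel-resistant attached cells CCL3 was 19.98-fold lower (17.97 to 22.29) and CCL5 18.1-fold lower (17.8 to 18.3). CCL4, with 6 against 12 UMIs, was again under the minimum, and 2 of 2 members passed, against 45.4% of 262 genes. Averaging the CPM of single cells, which gives shallow cells more weight, moved the CCL3 ratio in paclitaxel-resistant spheroids to 0.396, the CCL5 ratio there to 0.213, the CCL5 ratio in doxorubicin-resistant spheroids to 0.271 and the CCL4 ratio there to 48.6.

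The direct comparison of the resistance types set CCL3 and CCL4 apart from CCL5. In doxorubicin-resistant spheroids CCL3 was 24.3-fold (17.4 to 34.8) and CCL4 74.0-fold (33.8 to 203) higher than in paclitaxel-resistant spheroids, and the CCL5 ratio was 1.38 (1.34 to 1.42). Of the members 2 of 3 passed, against 17.5% of 251 genes. In doxorubicin-resistant attached cells CCL3 was 12.7-fold (11.4 to 14.2) and CCL4 68.3-fold (31.2 to 187) higher than in paclitaxel-resistant attached cells, and the CCL5 ratio was 0.982 (0.964 to 1.00). Here too 2 of 3 members passed, against 23.8% of 261 genes. The CCL4 folds stood on 6 UMIs in each paclitaxel-resistant population, and with averaged single-cell CPM the spheroid ratios were 3.74 for CCL3 and 8.03 for CCL4.

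The comparison of spheroids with attached cells showed smaller ratios, and they depended more on the scaling. In doxorubicin-resistant cells CCL4 was 3.00-fold higher in spheroids (2.66 to 3.39), whereas the ratios of CCL3 and CCL5 were 0.532 (0.498 to 0.567) and 1.46 (1.43 to 1.49). This is 1 of 3 members, against 33.6% of 268 genes. Without the 3 cells with the most UMIs of the gene in each population, the CCL4 ratio was 1.33 and the CCL3 ratio 0.340. In paclitaxel-resistant cells the CCL3 level fell to 4.26 CPM in spheroids, against 15.3 CPM in attached cells, a ratio of 0.278 (0.192 to 0.393), and the CCL5 ratio was 1.04 (1.01 to 1.06). This is 1 of 2 members, against 38.8% of 255 genes, and the CCL3 ratio turned to 2.07 with averaged single-cell CPM. In treatment-naïve cells the CCL3 ratio was 0.405 (0.382 to 0.429) and the CCL5 ratio 0.516 (0.512 to 0.520), so that 1 of 2 members passed, against 42.4% of 264 genes. CCL4 had 35 UMIs in spheroids and 12 in attached cells. The median log2 ratio over all measured genes was −0.34 in doxorubicin-resistant, −0.41 in paclitaxel-resistant and −0.33 in treatment-naïve cells, and the ratios above are not corrected for that shift.

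Most UMIs of CCL3 and CCL4, and of CCL5 outside treatment-naïve attached cells, lay in few cells. The top 2% of cells by CCL3 held 97.6% of its UMIs in doxorubicin-resistant and 99.9% in treatment-naïve spheroids, and 97.6%, 99.2% and 92.1% in doxorubicin-resistant, paclitaxel-resistant and treatment-naïve attached cells. If each cell had held CCL3 in proportion to its own depth, Poisson counting would give 17.9% and 19.8% in these spheroids, and 10.3%, 36.5% and 8.84% in these attached populations. The 36 CCL3 UMIs of paclitaxel-resistant spheroids are too few for this measure. CCL4 was held entirely by the top 2% in doxorubicin-resistant spheroids and attached cells, where Poisson counting would give 25.5% and 31.6%. For CCL5 the share was 85.6%, 85.7% and 63.0% in doxorubicin-resistant, paclitaxel-resistant and treatment-naïve spheroids, against Poisson values of 8.99%, 10.9% and 10.5%. In attached cells it was 71.8%, 71.2% and 39.5%, against 6.64%, 6.54% and 5.15%. The median over all genes with at least 50 UMIs was 13.6% to 29.6% across the populations. Among the genes with at least as many UMIs, each member with 50 or more UMIs ranked 1st in every population. For CCL5 these sets held only 13 genes in treatment-naïve attached cells and 23 in treatment-naïve spheroids, CCL5 included. The other sets held 77 to 211 genes. Over all genes with at least 50 UMIs, rarer ones included, CCL4 ranked 1st in both doxorubicin-resistant populations with its share of 100%, CCL3 ranked 23rd to 32nd and CCL5 19th to 61st. Every gene found in no more cells than the top 2% reaches 100%, so CCL4 held this rank together with other genes. Examples are FCGR3A, with 162 UMIs in 10 doxorubicin-resistant spheroid cells, and PTPRC, with 81 UMIs in 68 doxorubicin-resistant attached cells. In numbers of cells, 50% of all CCL5 UMIs lay in 12, 10 and 55 cells of the spheroid populations and in 25, 32 and 159 cells of the attached ones. Restricting treatment-naïve spheroids to cells with at least 1000 UMIs gave a CCL5 share of 49.75%.

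**Figure D3:**
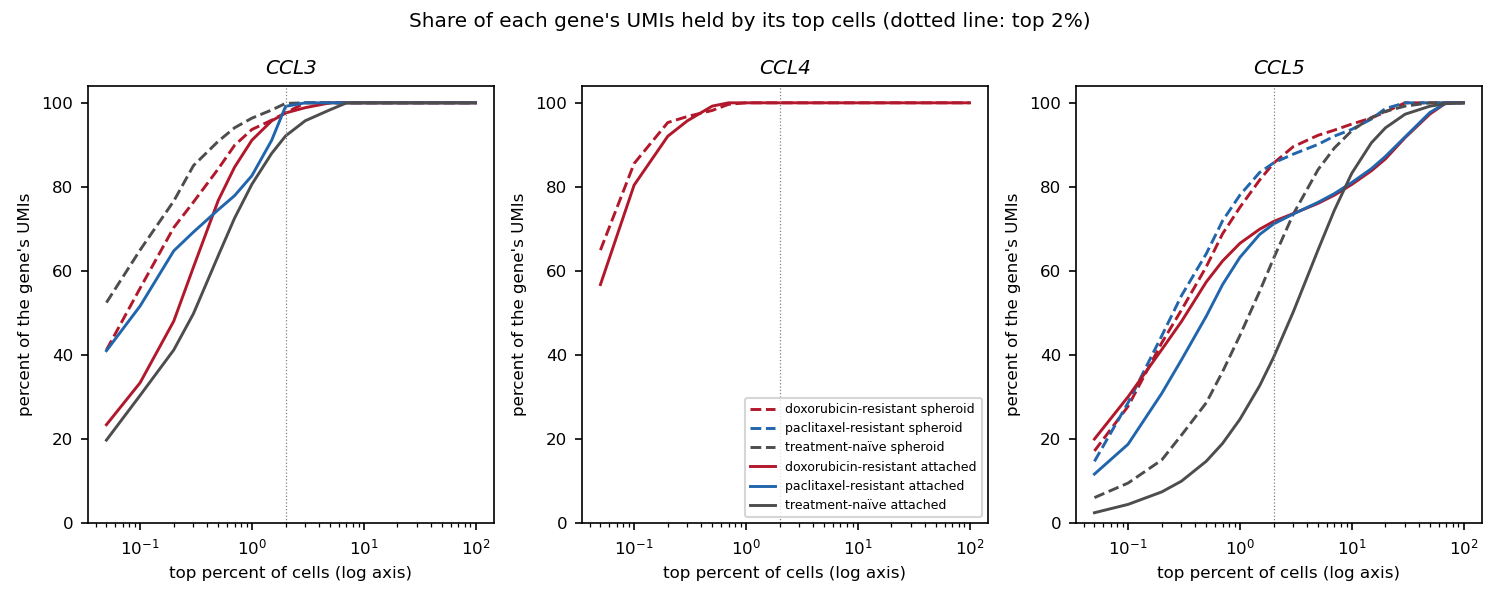
Percent of a gene's UMIs (vertical axis) held by the top percent of cells ranked by that gene (horizontal log axis), for populations with at least 50 UMIs; dashed lines are spheroids and solid lines attached cells. At the dotted line, the top 2%, CCL4 reaches 100% in both doxorubicin-resistant populations, while CCL5 reaches 85.6% and 85.7% in resistant spheroids and 39.5% in treatment-naïve attached cells.

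CCL3 and CCL4 were detected together in more doxorubicin-resistant cells than independent placement gives, although most CCL3-positive cells held no CCL4. Among doxorubicin-resistant spheroid cells 12 held at least 1 UMI of both, where 0.937 would be found if the genes were placed independently within groups of cells of like depth, a ratio of 12.8 (6.62 to 22.4). Among doxorubicin-resistant attached cells 26 held both against 1.59 by independence, a ratio of 16.4 (10.7 to 24.0). Of the CCL4-positive cells, 41.4% in doxorubicin-resistant spheroids and 65.0% in doxorubicin-resistant attached cells also held CCL3. The reverse was uncommon, since 11.8% and 9.39% of the CCL3-positive cells of these populations held CCL4. The few CCL4-positive cells of the other populations pointed the same way, with 2, 5, 2 and 6 cells holding both in paclitaxel-resistant and treatment-naïve spheroids and in paclitaxel-resistant and treatment-naïve attached cells. In doxorubicin-resistant attached cells the 277 CCL3-positive cells held 81.0% of all CCL4 UMIs, and in doxorubicin-resistant spheroids the 102 CCL3-positive cells held 32.0%. Of the 6 spheroid cells with more than 5 CCL4 UMIs, 2 also had more than 5 CCL3 UMIs, against 10 of 14 in attached cells.

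CCL5 was detected in a larger share of CCL3-positive cells than of CCL3-negative cells in all 6 populations. At 1 or more UMIs it was found in 61.8% against 26.6%, 57.7% against 22.6% and 83.3% against 44.9% of these cells in doxorubicin-resistant, paclitaxel-resistant and treatment-naïve spheroids. In the attached populations, where CCL5 was detected in most cells, the shares were 69.7% against 59.1%, 72.7% against 57.6% and 94.1% against 81.1%. These shares are not matched for depth, and the median depth of CCL3-positive cells was higher in every population, for example 4128 against 1490 UMIs in treatment-naïve spheroids. Within groups of like depth, the ratio of observed to independent joint detection was 2.02 (1.56 to 2.59), 2.31 (1.295 to 3.82) and 1.41 (1.11 to 1.76) in spheroids. In attached cells the ratio was 1.14 (0.983 to 1.31), 1.19 (0.955 to 1.47) and 1.11 (0.994 to 1.23). In these, 193 of 277, 88 of 121 and 352 of 374 CCL3-positive cells held CCL5, against 169.6, 73.9 and 318 by independence. The intervals treat the joint count as Poisson, although it cannot exceed the number of CCL3-positive cells. They are too wide where CCL5 is detected in most cells, so that they include 1 does not show independence. The ratio of observed to independent joint detection has a ceiling set by how often CCL5 is detected, so it is not compared between limits or populations. At more than 5 UMIs of both genes, 11 doxorubicin-resistant spheroid cells were found against 1.02 by independence, a ratio of 10.8 (5.39 to 19.3). In attached cells the ratio was 12.7 (9.05 to 17.4) on 39 doxorubicin-resistant cells and 12.8 (4.14 to 29.8) on 5 paclitaxel-resistant cells. In treatment-naïve cells, where high CCL5 was frequent, the ratio was 2.84 (1.82 to 4.23) in spheroids and 1.96 (1.60 to 2.36) in attached cells. Of the doxorubicin-resistant cells with more than 5 CCL3 UMIs, 39.3% in spheroids and 38.6% in attached cells had more than 5 CCL5 UMIs, against 3.31% and 2.38% of the other cells. In treatment-naïve cells 24 of 25 spheroid cells and 108 of 120 attached cells with more than 5 CCL3 UMIs also had more than 5 CCL5 UMIs. Treatment-naïve cells with high CCL3 were thus mostly a subset of the cells with high CCL5.

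**Figure D4:**
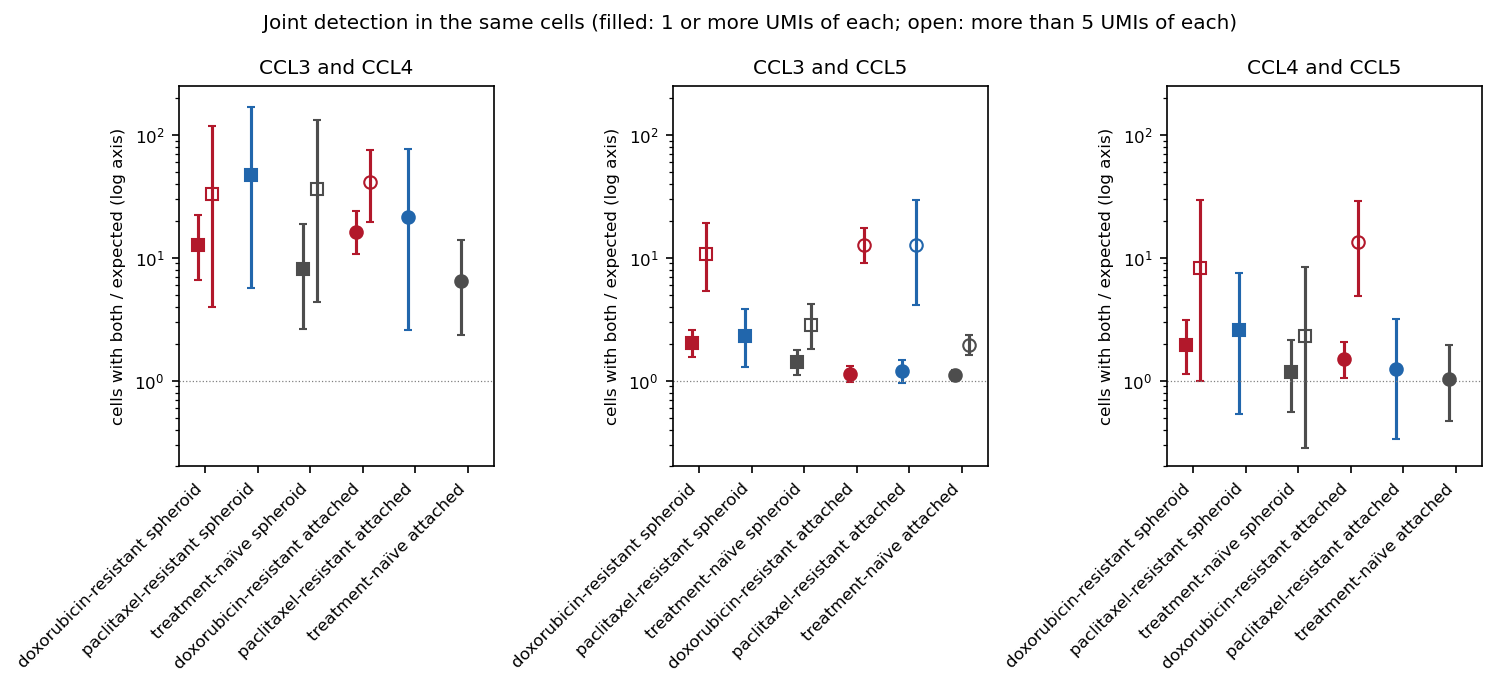
Cells detecting both genes of a pair over the number given by independence within groups of cells of like depth (log axis), with 95% counting intervals, where at least 2 cells held both; filled symbols need 1 or more UMIs of each gene and open symbols more than 5. CCL3 and CCL4 stand at 12.8 and 16.4 in the doxorubicin-resistant populations at 1 or more UMIs, and CCL3 and CCL5 at 1.14 in doxorubicin-resistant attached cells, with an interval of 0.983 to 1.31. The intervals are Poisson intervals and are too wide where CCL5 is detected in most cells.

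The levels within cells gave the same picture. In cells with more than 5 CCL3 UMIs CCL5 stood at 34992 CPM, against 826 CPM in the other cells, in doxorubicin-resistant spheroids, and at 64326 against 7119 CPM in treatment-naïve spheroids. In attached cells it stood at 17899 against 568 CPM in the doxorubicin-resistant and at 86013 against 13417 CPM in the treatment-naïve population. These sums were carried by a few cells, since the median CCL5 count in such cells was 1.5 in doxorubicin-resistant spheroids and 2 in doxorubicin-resistant attached cells, but 289 in treatment-naïve attached cells. Conversely, cells with more than 5 CCL5 UMIs held 44.8% of all CCL3 UMIs in doxorubicin-resistant spheroids, 44.1% in doxorubicin-resistant attached cells and 95.01% in treatment-naïve attached cells. All 3 genes at 1 or more UMIs were found together in 8, 1 and 5 cells of doxorubicin-resistant, paclitaxel-resistant and treatment-naïve spheroids and in 23, 2 and 5 cells of the attached populations. At more than 5 UMIs, 56 doxorubicin-resistant attached cells held CCL3 alone, 163 CCL5 alone, 2 CCL4 alone and 4 all 3 genes.

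Cells rich in a chemokine were next compared with the other cells of their population for every other gene of the panel. These cells share a library, so the values are descriptions of that library. A gene that recurred, higher by ratio in attached cells and in cells with high CCL3 than in spheroid cells with high CCL5, was IL7R, which encodes the alpha chain of the interleukin 7 receptor. In cells with more than 5 CCL3 UMIs it stood at 1142 CPM, against 167 CPM in other cells, in doxorubicin-resistant spheroids, a ratio of 6.84 (5.74 to 8.10), and at 553 against 138 CPM in treatment-naïve spheroids, where 1 cell held 61.0% of the IL7R UMIs. In attached cells it stood at 1047 against 124 CPM in doxorubicin-resistant cells, a ratio of 8.45 (7.68 to 9.28), and at 851 against 189 CPM in treatment-naïve cells, a ratio of 4.50 (4.11 to 4.92). IL7R was detected in 73.3% of these doxorubicin-resistant attached cells. In cells with more than 5 CCL5 UMIs IL7R stood at 556 against 164 CPM, 241 against 137 CPM and 232 against 106 CPM in doxorubicin-resistant, paclitaxel-resistant and treatment-naïve spheroids. In attached cells it stood at 550 against 126 CPM, 279 against 42.0 CPM and 364 against 89.0 CPM in the same order. The ratio was at least 2 in all 4 populations with 20 or more cells of high CCL3 and in 5 of 6 for CCL5, with 1.77 in paclitaxel-resistant spheroids as the exception. Among the measured genes IL7R ranked 1st to 5th by ratio with high CCL3 and 1st to 3rd in attached cells with high CCL5, but 7th, 32nd and 6th in doxorubicin-resistant, paclitaxel-resistant and treatment-naïve spheroids with high CCL5. At 1 or more CCL5 UMIs the IL7R ratio was 1.13 to 2.98.

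Of 221 genes measured in all 4 CCL3 comparisons, only IL7R and BCL2L11, a pro-apoptotic BCL2 family gene, had ratios of at least 2 in each of them, and HIC1, a transcriptional repressor, was the only one with ratios of at most 1/2 in each. For IL7R in treatment-naïve spheroids, most of the UMIs behind the ratio lay in 1 cell. Of 208 genes measured in all 6 CCL5 comparisons none passed in every population, and IL12A, a subunit gene of interleukin 12, followed IL7R with 4. In doxorubicin-resistant spheroids with high CCL3, 24.9% of 245 genes passed the 2-fold limit, and in treatment-naïve spheroids 37.4% of 243. In attached cells with high CCL3 it was 15.7% of 254 genes in the doxorubicin-resistant and 16.7% of 251 in the treatment-naïve population. With high CCL5 the shares were 15.2% of 243, 13.2% of 227 and 9.44% of 233 genes in doxorubicin-resistant, paclitaxel-resistant and treatment-naïve spheroids. In the attached populations they were 7.09% of 254, 7.44% of 242 and 2.94% of 238. The shares for CCL3 rest on 25 to 120 cells.

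Other genes with high ratios differed between populations. In doxorubicin-resistant attached cells with high CCL5, IL12A stood at 169 against 43.6 CPM, EBF4, a transcription factor gene, at 317 against 90.1 CPM, and PTGS2, the inducible cyclooxygenase, at 1237 against 392 CPM. In treatment-naïve attached cells with high CCL5, ANGPT1, which encodes a ligand of the endothelial receptor TIE2, stood at 25.2 against 3.65 CPM, and the calcium-binding S100A9 at 6311 against 2882 CPM. In treatment-naïve spheroids with high CCL5, the MHC class II genes HLA-DRA and CD74 stood at 18.2 against 5.27 CPM and at 63.6 against 23.9 CPM. Among the lowest ratios were those of the mitotic genes CENPA and CDC20, at 21.1 against 346 CPM and 179 against 2133 CPM in treatment-naïve spheroid cells with high CCL3. These 25 cells had a median depth of 6396 against 1507 UMIs in the others, and the part of depth in this was not tested. Some high ratios came from single cells. FCGR3A, an Fc receptor gene, had 123 UMIs in doxorubicin-resistant spheroid cells with high CCL3, of which 94.3% lay in 1 cell, and CXCL14 in doxorubicin-resistant attached cells with high CCL3 had 86.9% of its 833 UMIs in 1 cell.

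Resistant cells with high CCL5 were read for ABCB1 and IGFBP3, each 1 gene of a list that earlier results of these data had as high in resistant and in treatment-naïve cells. In doxorubicin-resistant attached cells with high CCL5, 1 of 5 measured genes of the treatment-naïve list was higher and 0 lower, where 16 and 2 of all 254 genes were. The median log2 ratio of that list was 0.446 against 0.005 over all genes. Of the resistant list 0 of 5 passed in either direction, with a median of −0.136. ABCB1, the drug efflux pump, stood at 4215 against 6291 CPM in doxorubicin-resistant and 4756 against 3438 CPM in paclitaxel-resistant spheroids. It stood at 9515 against 7633 CPM in doxorubicin-resistant and 4589 against 4651 CPM in paclitaxel-resistant attached cells. The whole treatment-naïve populations had 286 CPM in spheroids and 146 CPM in attached cells. IGFBP3, which binds insulin-like growth factors, stood at 12.4 against 16.7 CPM and 45.6 against 24.3 CPM in doxorubicin-resistant and paclitaxel-resistant spheroids. In the attached populations it stood at 32.1 against 20.2 CPM and 20.5 against 20.6 CPM, far below the 843 CPM of treatment-naïve spheroids and the 2823 CPM of treatment-naïve attached cells. Median depth in cells with more than 5 CCL5 UMIs, against the other cells, was 2649 against 2325, 2254 against 1599 and 3783 against 1006 UMIs in doxorubicin-resistant, paclitaxel-resistant and treatment-naïve spheroids, and its part in the spheroid values was not tested.

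**Figure D5:**
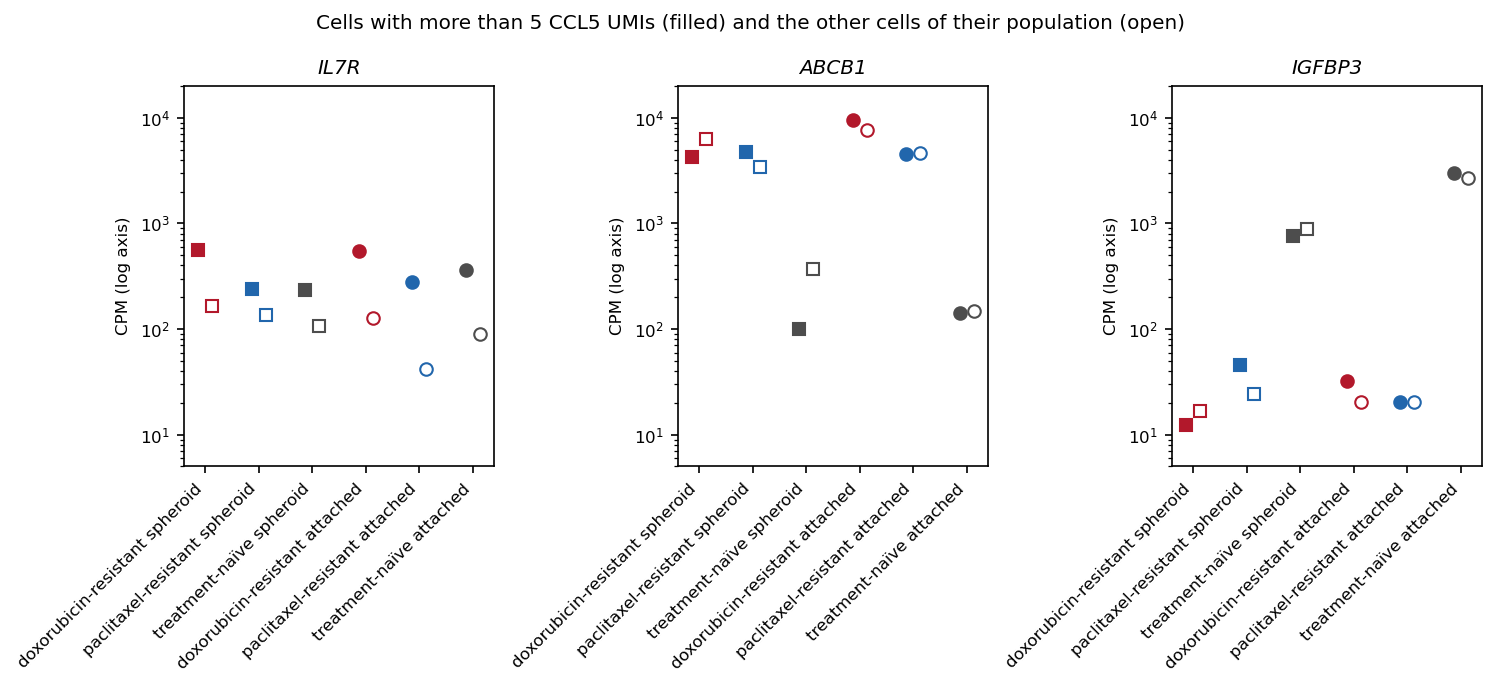
CPM (log axis) of IL7R, ABCB1 and IGFBP3 in cells with more than 5 CCL5 UMIs (filled) and in the other cells of the same population (open). IL7R is higher in the filled cells of all 6 populations (for example 550 against 126 CPM in doxorubicin-resistant attached cells), while in resistant cells with high CCL5 ABCB1 lies between 4215 and 9515 CPM and IGFBP3 between 12.4 and 45.6 CPM.

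Chemokines of this kind are textbook products of leukocytes, so leukocyte markers were read in the same cells. CD3E had 0 or 1 UMI, CD3G 0 to 2 and PTPRC, the pan-leukocyte gene CD45, 0 to 7 UMIs in each set of cells with high CCL3 or high CCL5. The 5 genes of the line's identity, among them VIM and KRT18, summed to 126027 CPM in doxorubicin-resistant attached cells with high CCL5, against 138417 CPM in the others. Their sum was lower than in the other cells in every set. With high CCL3 it was 49236 against 88924 CPM in treatment-naïve spheroids and 48336 against 70476 CPM in treatment-naïve attached cells. With high CCL5 it was 73199 against 95078 CPM and 61497 against 76256 CPM in the same 2 populations. The 19 T and NK cell genes summed, with high CCL5 against the other cells, to 642 against 83.7 CPM, 91.1 against 55.5 CPM and 74.6 against 87.9 CPM in doxorubicin-resistant, paclitaxel-resistant and treatment-naïve spheroids. In the attached populations the sums were 34.3 against 22.6 CPM, 14.8 against 14.6 CPM and 10.8 against 10.8 CPM. With high CCL3 they were 610 against 98.99 CPM in doxorubicin-resistant and 42.1 against 84.5 CPM in treatment-naïve spheroids, and 51.9 against 22.5 CPM and 7.58 against 10.9 CPM in the attached populations. The T and NK sums were thus higher in the chemokine-rich cells of both doxorubicin-resistant populations, and in the spheroids CD3D had 203 UMIs with high CCL5, of which 40.9% lay in 1 cell. Of the measured genes of this list, 5 of 5 passed the 2-fold limit upward in doxorubicin-resistant spheroids with high CCL5, 2 of 5 with high CCL3, and 1 and 2 of 4 in doxorubicin-resistant attached cells with high CCL5 and high CCL3. Over all genes, 15.2% of 243 and 24.9% of 245 passed in either direction in these spheroid sets. In the attached sets 16 and 31 of all 254 genes passed upward. The 8 B and plasma cell genes, without FCRLA, summed with high CCL3 to 219 against 80.75 CPM and 0 against 9.17 CPM in doxorubicin-resistant and treatment-naïve spheroids. In attached cells the sums were 37.4 against 24.7 CPM and 3.03 against 4.62 CPM. With high CCL5 they were 126 against 80.7 CPM, 0 against 8.75 CPM and 5.39 against 10.7 CPM in the spheroid populations. The attached sums were 22.1 against 25.0 CPM, 3.42 against 8.43 CPM and 4.58 against 4.57 CPM.

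Summed together, the 8 myeloid genes, taken without S100A8 and S100A9, had a higher CPM in all sets, although only 3 to 7 of them had any UMI there. With high CCL5 they summed to 1121 against 339 CPM, 670 against 97.3 CPM and 557 against 317 CPM in doxorubicin-resistant, paclitaxel-resistant and treatment-naïve spheroids, and to 273 against 124 CPM, 212 against 185 CPM and 956 against 533 CPM in the attached populations. With high CCL3 they summed to 1830.0 against 351 CPM in doxorubicin-resistant and 822 against 384 CPM in treatment-naïve spheroids, and to 384 against 125 CPM and 1188 against 703 CPM in the attached populations. Much of these sums was CD14, which stood at 121.6 CPM in the whole doxorubicin-resistant and 700.3 CPM in the whole treatment-naïve attached population. Of the 234 UMIs behind the 1830.0 CPM, 116 were FCGR3A UMIs of 1 cell. The sums therefore do not show that the 8 genes rose together. The part of leukocytes, or of RNA from them, in the values above was not tested.

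Few chemokine receptors were counted often enough to be compared. Of 17 chemokine receptor genes looked for, 8 were in the files, and CCR1 and CCR3 were not among the genes analysed here. CCR2, a receptor for other CC ligands, passed the 2-fold limit in both resistant spheroid populations, with 84 UMIs in doxorubicin-resistant and 59 in paclitaxel-resistant against 6 in treatment-naïve spheroids. CCR7, a lymph node homing receptor, had 59 UMIs in doxorubicin-resistant and 18 in paclitaxel-resistant against 105 in treatment-naïve attached cells, ratios of 0.409 and 0.157. None of the 12 other CC ligands looked for was in the files.

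Of the other chemokine ligands 3 of 10 were in the files. CXCL12, the ligand of CXCR4, was lower in all 4 resistant populations, by 43.1-fold and 35.4-fold in doxorubicin-resistant and paclitaxel-resistant spheroids and by 59.6-fold and 62.4-fold in the attached ones. CXCL14 stood at 45.3 CPM in doxorubicin-resistant against 0.973 CPM in treatment-naïve spheroids, and at 386 against 5.84 CPM in the attached populations. It was also higher in paclitaxel-resistant attached cells, at 22.6 CPM, and lower in doxorubicin-resistant spheroids than in doxorubicin-resistant attached cells, with a ratio of 0.118. CXCL16 had ratios between 0.840 and 1.23 in all 4 comparisons.

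The genes of NF-κB signalling and cytokines, of which 11 of 18 were in the files, moved in both directions in 3 of 4 comparisons. In doxorubicin-resistant spheroids 2 of 10 measured were higher and 5 lower, where 43 and 45 of all 260 genes were, with a median log2 ratio of −0.68 against 0.20 over all genes, and in doxorubicin-resistant attached cells 3 of 10 were higher and 3 lower, where 65 and 61 of all 268 were, with medians of 0.10 and 0.13. In paclitaxel-resistant spheroids 0 of 9 were higher and 4 lower, where 25 and 51 of all 252 were, with medians of −0.81 and 0.00, and in paclitaxel-resistant attached cells 2 of 10 were higher and 4 lower, where 53 and 66 of all 262 were, with medians of −0.63 and −0.02. PTGS2 and IL1B, which encodes interleukin 1 beta, were lower in all 4 comparisons, by 10.1-fold and 2.19-fold in doxorubicin-resistant spheroids and by 28.3-fold and 8.28-fold in doxorubicin-resistant attached cells. IL1RN, the interleukin 1 receptor antagonist, and IL6 marked the other end in doxorubicin-resistant attached cells, at 20.7 against 6.02 CPM and 14212 against 2707 CPM.

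Over the 6 populations the profile of each member was set beside that of 276 genes, as Pearson's r of log2(CPM + 1), a description over 6 points that share cartridges and drugs. CCL3 was most like STAT5A (0.985), CD46 (0.976) and PLAU (0.961). CCL4 was most like TCL1A (0.99), CCNA1 (0.984) and CD244 (0.974), and CCL5 most like ALDH1A1 (0.996), IGFBP3 (0.988) and CDKN1A (0.983). Between members r was 0.596 for CCL3 and CCL5, 0.431 for CCL3 and CCL4 and −0.291 for CCL4 and CCL5.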

How the data were processed

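The authors deposited 1 matrix of counts per population, in which a count is the number of UMIs of a panel gene in a cell, adjusted for UMI errors by the platform's RSEC method on a cloud pipeline. The genome build is hg38 per the submitters' processing notes. The filter that defined a cell and the treatment of multiplets are not given in the sources used here. Each file was assigned to its population by its name, since the labels list the populations and sample tags of a cartridge but not which file holds which. All cells were kept, and no doublet caller was run. The deposited counts were summed per population and scaled to a total of 1000000 (CPM). No test was made with 1 sample per group: ratios of CPM have exact conditional binomial intervals, levels exact Poisson intervals and shares Clopper-Pearson intervals. A fold of 2 with at least 50 UMIs in one of the sets compared was the size limit. The genes named with a member are the 5 with the largest and the 3 with the smallest ratio, beside genes that recurred over populations, all chemokine ligands and receptors, and the 3 genes most like a member over the populations, from which those printed were taken. Cells with more than 5 UMIs were added as a set after the data had been seen, as were the fits without the top cells. The members and all gene lists were chosen with earlier results of these data known. The code was tested on simulated data. Python 3.11.15 with numpy 2.4.6, scipy 1.17.1, pandas 2.3.3 and matplotlib 3.10.9 was used, and sequences and positions came from RefSeq tables of GRCh38.p14, in whose promoter table CCL3 matched. The result for 1 receptor gene of the panel is not reported here.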

Additional observations from a re-analysis of the deposited data

Results flagged for a closer look

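CCL4 had opposite directions in the 2 resistant spheroid populations, with a ratio to treatment-naïve spheroids of 16.98 in doxorubicin-resistant and 0.229 in paclitaxel-resistant spheroids, the second on 6 against 35 UMIs. CCL5 had opposite directions between culture formats, with a ratio of spheroids to attached cells of 1.46 in doxorubicin-resistant, 1.04 in paclitaxel-resistant and 0.516 in treatment-naïve cells. With averaged single-cell CPM the CCL4 ratio in paclitaxel-resistant spheroids was 6.05, so its opposite directions did not hold under every setting. The CCL5 ratio in paclitaxel-resistant cells was 0.952 among cells with at least 1000 UMIs and 0.917 without its 3 top cells. Without scaling the CCL5 ratios were 0.522, 0.374 and 0.2725. Unscaled ratios follow the total UMIs, with median log2 ratios over all measured genes of −1.82, −1.88 and −1.25, so they cannot decide the direction of CCL5. With 1 sample per population, neither difference was tested.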

How the results depend on the processing

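Of 243 ratios of CPM recomputed under other settings, 9 fell on the other side of 1. The comparisons of resistant with treatment-naïve cells, and of the resistant populations with each other, had as many members past the limit under all settings run, except that CCL4 joined CCL3 and CCL5 in both paclitaxel-resistant populations with a minimum of 10 UMIs or none. The comparisons of spheroids with attached cells did not. In treatment-naïve cells the number, 1 as reported, was 2 without scaling, 0 with median-of-ratios size factors, which gave a CCL3 ratio of 0.516, 2 with a minimum of 10 UMIs or none, and 2 without the 3 cells with the most UMIs of the gene. In paclitaxel-resistant cells, 1 as reported, it was 2 without scaling and 2 without a minimum. In doxorubicin-resistant cells, 1 as reported, it was 2 with averaged single-cell CPM, where the CCL5 ratio was 2.17, and without scaling the CCL4 ratio was 1.07. Without scaling the turned ratios were those of CCL5 in spheroids over attached cells, doxorubicin-resistant (0.522) and paclitaxel-resistant (0.374), and in doxorubicin-resistant over paclitaxel-resistant attached cells (1.24). Unscaled ratios carry the difference in total UMIs between the populations, which is large between spheroids and attached cells. With averaged single-cell CPM they were those of CCL3 in paclitaxel-resistant spheroids over attached cells (2.07) and, over treatment-naïve spheroids, of CCL4 in paclitaxel-resistant (6.05) and CCL3 in doxorubicin-resistant spheroids (1.48). The last was 1.60 without the 1% of cells with the most UMIs. In paclitaxel-resistant spheroids over attached cells CCL5 was at 0.952 among cells with at least 1000 UMIs and at 0.917 without its 3 top cells. Other measures were counted by another rule, namely leaving the counting interval, so their counts are not set against the 9 above. By this rule IL7R ratios in 19 of 21 values, shares of cells in 40 of 54, joint detection in 35 of 73 and the share of the top 2% in 39 of 65 lay outside the counting interval. The direction also turned for the joint detection of CCL3 and CCL4 in treatment-naïve spheroids thinned to 1000 UMIs, where 0 cells held both. The cause was not tested, except that thinning leaves fewer cells and UMIs. No paired analysis was possible because each population is 1 sample. CCL4 is limited by depth outside doxorubicin-resistant cells, where it had 6 to 35 UMIs per population.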
